A study of Homo sapiens with 12 samples.

Results

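Osimertinib (OSI) was given alone to PC9-OR cells and set against the same cells in the group labelled Control, with 3 OSI libraries and 3 Control libraries out of the 12 of the study. Members were chosen by their treatment labels alone. The other 6 libraries came from PC9-OR cells given dauricine with osimertinib (DAC+OSI) and dauricine alone (DAC), 3 each, and they show here whether the effect of OSI was the same with dauricine present. PC9 is an established non-small cell lung cancer (NSCLC) line that grows on a mutant, constitutively active EGFR. PC9-OR is named by the study as resistant to osimertinib, so every group shares that resistance, and no library of the sensitive parent was used here. The labels give no dose, no exposure time and no vehicle for Control. Nothing in them says whether the 3 libraries of a group came from separate cultures, so the p-values rest on differences among libraries that may be no more than technical. Total RNA was extracted, polyadenylated mRNA was sequenced, and the values are counts of reads per gene.

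Osimertinib is a covalent inhibitor of mutant EGFR, a receptor tyrosine kinase. Active EGFR signals through RAS, RAF, MEK and ERK to transcription factors of the AP-1, ETS and EGR families, and through PI3K and AKT to mTOR and the FOXO factors. Cells that are resistant to the drug can keep those outputs on through another receptor or through a downstream protein.

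The 3 OSI libraries held 41.1, 46.4 and 47.6 mega-counts (M), and the Control libraries held 60.9, 43.2 and 42.1 M. All 12 ran from 24.9 to 66.9 M, so a count of 0 allows up to 3 counts, or 0.0449 to 0.12 counts per M (CPM), a floor that covers counting error only. Deviations from the group mean rose with gene GC content in Control 2 (rank correlation 0.56 across genes, which are not independent) and fell with it in Control 1 (-0.48) and Control 3 (-0.37), while the OSI libraries stayed between -0.09 and 0.06. DAC+OSI 2 had 0.57. The deviations of the 3 libraries of a group sum to 0 for each gene, so their trends are not independent of each other. Epithelial and lung adenocarcinoma markers fit the label: 9 of 9, among them EGFR, EPCAM, KRT8, KRT18 and CDH1, summed to 14542 to 16073 CPM in OSI libraries and 12362 to 15415 CPM in Control libraries. NKX2-1, the alveolar lineage factor, was below the count filter. Markers of other cell types were low. The 11 immune markers summed to 14.0 to 15.6 CPM in OSI libraries and 20.2 to 29.5 CPM in Control libraries. The 7 endothelial markers summed to 10.7 to 13.4 CPM in OSI and 4.95 to 5.41 CPM in Control, most of it from CDH5, and the 9 fibroblast markers to 7.79 to 9.70 CPM in OSI and 11.4 to 22.8 CPM in Control, with DCN and PDGFRA at 0 in all 6 libraries.

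Of 20820 genes tested with the quasi-likelihood test of edgeR and Benjamini-Hochberg adjustment, 3926 were called at an adjusted p under 0.05. OSI raised 2212 of them, 10.6% of the genes tested, and lowered 1714, 8.23%, together 18.9%. The median log2 fold change of all genes was -0.01. Changes of at least 2-fold numbered 1099 higher and 715 lower, together 8.71% of the genes tested. The 3 OSI libraries lay wholly above or wholly below the 3 Control libraries for 40.2% of all genes (21.5% above and 18.7% below), and for 3894 of the 3926 genes called. Of all genes, 2888 (13.9%) had a 95% interval inside 0.5 on the log2 scale on both sides of 0, so most genes that were not called could still have moved by that much. With Control 2 and DAC+OSI 2 left out of the fit, 9084 genes were called, 4704 higher (22.6%) and 4380 lower (21.0%), and list counts from this 10-library fit are to be read against those shares. Among protein-coding genes 21.5% were called. Every adjusted p below is from the edgeR test over all 20820 genes, every fold is on the fitted log2 scale, and values after ± are SD of 3 libraries, or SE where a log2 fold change is given.

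**Figure D1:**
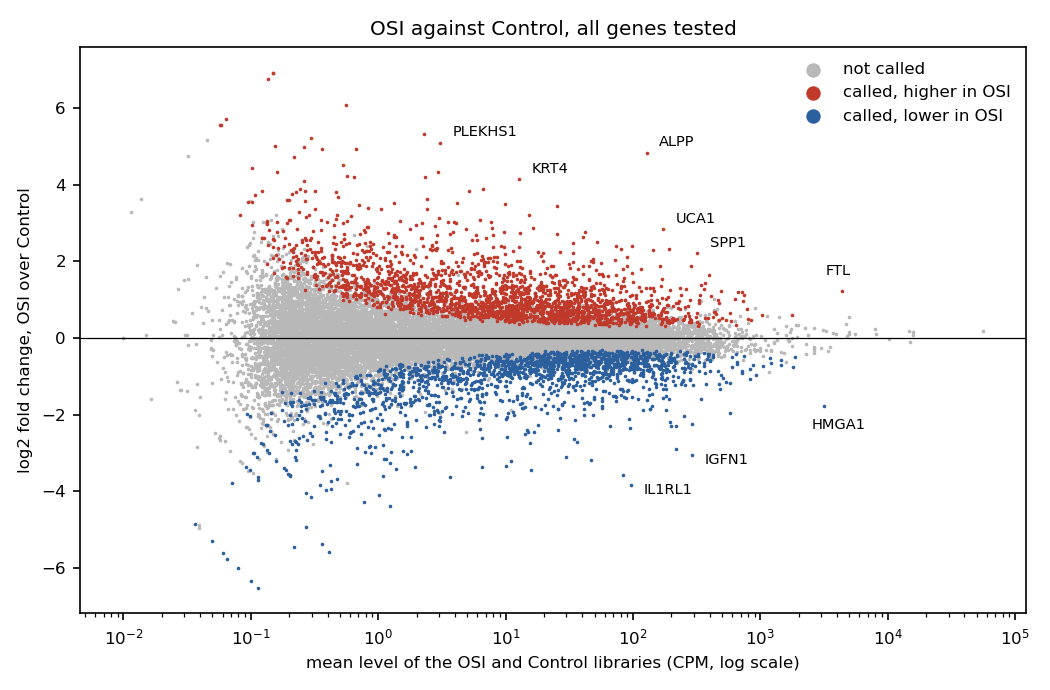
Mean level of the OSI and Control libraries (CPM, log axis) against log2 fold change of OSI over Control for 20820 genes; red points were called higher in OSI (2212), blue points lower (1714), grey points not called. Among the named genes ALPP and UCA1 lie above 0 and HMGA1, IGFN1 and IL1RL1 below. PLEKHS1 and KRT4 lie above 0 at lower levels.

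The receptors of the EGFR family moved in different directions. EGFR transcripts fell while those of its partners ERBB2 and ERBB3 rose, and ERBB4 was below the filter. ERBB3, a receptor with little kinase activity of its own that recruits PI3K, had 284, 305 and 339 CPM in OSI libraries, against 189.8, 204 and 226 CPM in Control libraries. All OSI libraries were above all Control libraries, a 1.5-fold rise (adjusted p = 0.00246). ERBB2 had 137, 145 and 146 CPM in OSI libraries and 79.3, 105 and 88.7 CPM in Control libraries, 1.57-fold higher with OSI (adjusted p = 0.0255), and it was no longer called without Control 1, Control 3, OSI 1, OSI 2 or OSI 3. EGFR averaged 1339 ± 158 CPM in OSI and 2261 ± 172 CPM in Control (n = 3 each), 1.69-fold lower with OSI (adjusted p = 0.00124).

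Of 14 ligands and shedding proteases of the family, 5 fell and 1 rose, with a median log2 fold change of -0.43 and 3 higher and 7 lower in the 10-library fit. AREG (amphiregulin), a low-affinity EGFR ligand, had 7.81, 5.86 and 5.45 CPM in OSI libraries, against 23.8, 24.4 and 18.1 CPM in Control libraries, 3.47-fold lower with OSI (adjusted p = 7.6e-05). The levels did not overlap. HBEGF and EREG, which also bind EGFR, fell 2.65-fold and 3.58-fold, and EPGN and TGFA fell as well. EGF, the founding ligand of the family, was the one that rose: it had 3.76, 3.5 and 4.72 CPM in OSI libraries and 1.96, 1.54 and 2.2 CPM in Control libraries (2.1-fold, adjusted p = 0.00567). ADAM17, the protease that releases several of these ligands, had a log2 fold change of -0.32 ± 0.13 and a 95% interval of -0.61 to -0.03.

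Transcripts of some proteins that restrain the receptor were lower. ERRFI1 (MIG6), an inhibitor that binds the EGFR kinase domain, had 104, 103 and 84.5 CPM in OSI libraries, against 276, 228 and 232 CPM in Control libraries. It fell 2.53-fold (adjusted p = 5.0e-05), with every OSI library below every Control library. CBL, the ubiquitin ligase that marks active EGFR for degradation, had 55.1, 65.6 and 70.5 CPM in OSI libraries and 101, 98 and 106 CPM in Control libraries, 1.6-fold lower with OSI (adjusted p = 0.00423). RNF41, a ubiquitin ligase of ERBB3, fell 1.57-fold (adjusted p = 0.00223), and PTPN12, a tyrosine phosphatase, was the remaining member called. Altogether 4 of 17 adaptors and negative regulators fell and none rose, and GRB2, SHC1, GAB1, SOS1 and PTPN11, which couple the receptor to RAS, were not called. The list had 1 higher and 8 lower in the 10-library fit.

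Few transcripts of the kinases and GTPases between EGFR and ERK were called. Of 19, RASA1 fell and RRAS rose, near the share of all genes called, and the median log2 fold change was close to 0; the counts were 4 higher and 8 lower in the 10-library fit, and the number lower was 3 without Control 2. RASA1, which switches RAS off by speeding its GTP hydrolysis, had 79.4, 78.5 and 70.8 CPM in OSI libraries, against 211, 175 and 191 CPM in Control libraries. The groups did not overlap and the fall was 2.52-fold (adjusted p = 4.7e-05). RRAS, a RAS relative, rose 1.46-fold (adjusted p = 0.0452), a call lost without Control 1, Control 3, OSI 1 or OSI 3, under relative log expression or upper quartile scaling and with no count filter.

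Outputs of ERK fell: 15 of 27 transcription factors that ERK drives were lower (against 8.23% of all genes), none was higher, and the median log2 fold change was -0.71, with 2 higher and 18 lower in the 10-library fit. FOSL1, the AP-1 subunit FRA-1, had 63.9, 58.7 and 55.2 CPM in OSI libraries, against 209, 256 and 174 CPM in Control libraries, 3.6-fold lower with OSI (adjusted p = 0.000118). Its groups stood far apart. KLF6, a zinc-finger factor, had 27.5, 31.2 and 26.7 CPM in OSI libraries and 71.5, 64.3 and 63.1 CPM in Control libraries (2.33-fold lower, adjusted p = 1.1e-05). ELK3, an ETS factor bound and phosphorylated by ERK, fell 2.16-fold (adjusted p = 3.2e-05), and MYC fell 1.95-fold (adjusted p = 0.00050). EGR1, EGR2, EGR3, EGR4, ETV4, ETV5, IER2, IER3, KLF4, MAFF and ELK4 were the other members called. FOS, FOSB, JUN, JUNB and ATF3 were not.

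Feedback inhibitors of ERK moved mostly the same way: 8 of 17 dual-specificity phosphatases and Sprouty-family proteins fell and 2 rose. DUSP5, a nuclear ERK phosphatase, had 42.5, 41.8 and 35.7 CPM in OSI libraries, against 69.9, 99.1 and 76.4 CPM in Control libraries (2.04-fold lower, adjusted p = 0.0041). The values did not overlap, and DUSP6 and SPRY4 fell further, by 3.62-fold and 2.86-fold. DUSP9 and SPRY1 were the members that rose. The number lower was 5 without OSI 2, and the number higher was 0 without Control 1 and 1 without Control 2, OSI 2 or OSI 3.

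**Figure D2:**
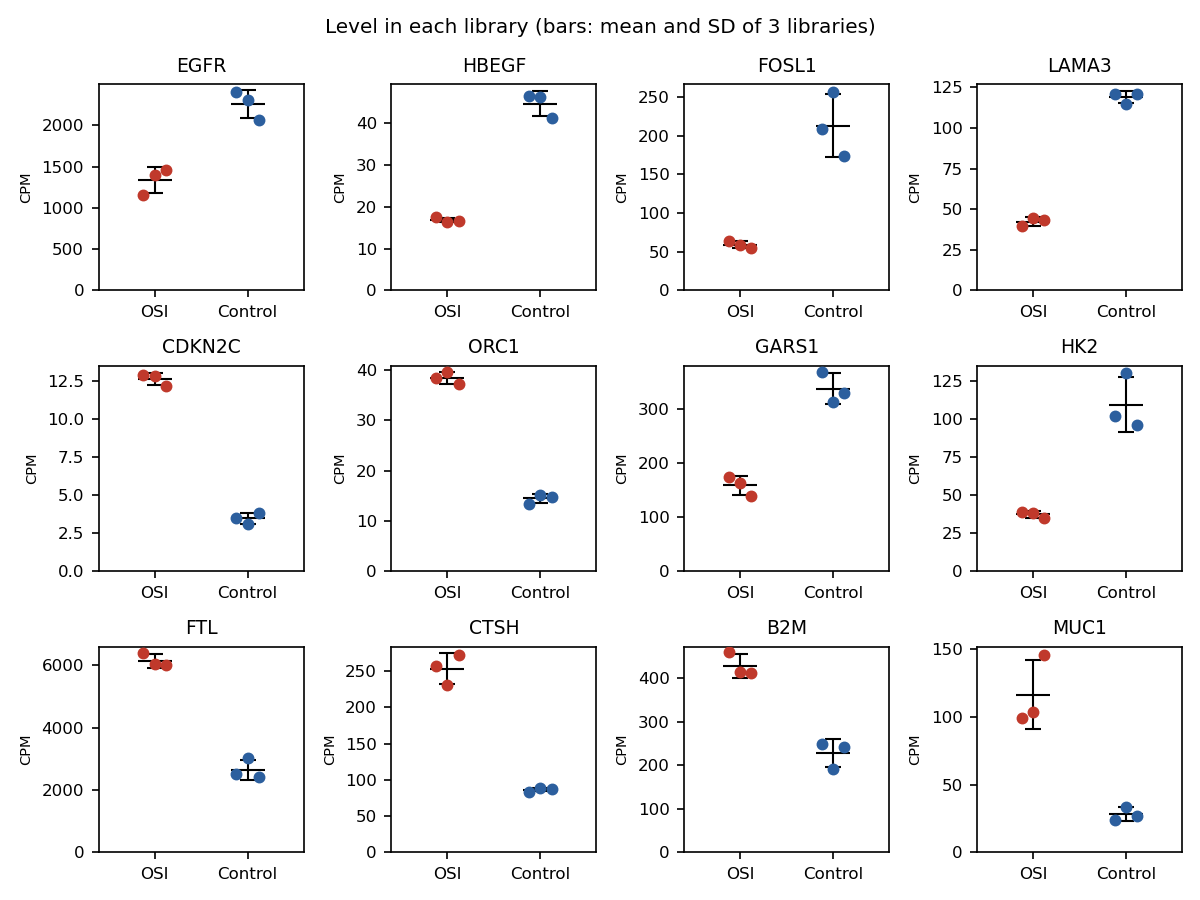
Level in CPM of 12 genes in each of 3 OSI libraries (red, left) and 3 Control libraries (blue, right), each panel from 0; black marks are means and SD. In every panel the OSI points lie wholly on one side of the Control points, lower for EGFR, HBEGF, FOSL1, LAMA3, GARS1 and HK2 and higher for CDKN2C, ORC1, FTL, CTSH, B2M and MUC1.

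On the PI3K side, genes that FOXO factors switch on when AKT is low were more often higher than lower, 9 against 3 of 23, with a median log2 fold change of 0.39. The shares of all genes were 10.6% higher and 8.23% lower. The number higher was 6 to 8 and the number lower 2 to 3 when 1 library was left out. The 10-library fit had 11 higher and 4 lower. PIK3IP1, which binds and inhibits PI3K, had 13.5, 12.8 and 13.9 CPM in OSI libraries, against 5.78, 5.73 and 6.33 CPM in Control libraries, 2.25-fold higher with OSI (adjusted p = 0.000176). INSR, the insulin receptor, had 32, 33.8 and 35.6 CPM in OSI libraries and 14.4, 18.7 and 18.2 CPM in Control libraries (1.98-fold higher, adjusted p = 0.000223). Neither gene overlapped between the groups. CITED2, a transcriptional regulator, rose 2.01-fold (adjusted p = 0.000221). CDKN1B, the cell cycle inhibitor p27, did overlap, with a log2 fold change of 0.07 ± 0.18 and a 95% interval of -0.32 to 0.45.

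Of 25 genes of the PI3K, AKT and mTOR pathway itself, 5 fell and 2 rose. DDIT4 (REDD1), a stress-induced brake on mTOR, had 55.8, 56.9 and 50.4 CPM in OSI libraries, against 142, 211 and 140.2 CPM in Control libraries, 3.03-fold lower with OSI (adjusted p = 0.000408). SESN2, another such brake, fell 2.6-fold (adjusted p = 0.000177), and EIF4EBP1, the translation repressor that mTOR inactivates, fell 1.96-fold (adjusted p = 0.000125). The levels of all 3 genes were apart in the 6 libraries. The number lower was 3 without Control 1, Control 3, OSI 1 or OSI 2, and the number higher was 0 without Control 1, Control 2, OSI 2 or OSI 3 and 1 without Control 3 or OSI 1, with 5 higher and 10 lower in the 10-library fit.

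Receptors known to bypass EGFR inhibition did not rise together: of 25 tested receptor kinases and ligands, 4 were higher and 5 lower. FGFR3, a fibroblast growth factor receptor, had 42.4, 45.6 and 40.9 CPM in OSI libraries, against 12.4, 17.4 and 15.5 CPM in Control libraries and rose 2.85-fold (adjusted p = 0.00267), chosen for mention after its values were seen. Its groups were apart. AXL, a receptor often raised in resistant cells, had 117, 119 and 103 CPM in OSI libraries and 191, 275 and 184 CPM in Control libraries, 1.91-fold lower with OSI (adjusted p = 0.00458). EPHA4 and MERTK fell 2.54-fold and 1.9-fold, while IGF1R, INSR and EFNA1 rose. MET was not called, with 181, 180.2 and 183 CPM in OSI libraries, against 216, 221 and 221 CPM in Control libraries, a log2 fold change of -0.27 ± 0.10 and a 95% interval of -0.49 to -0.06; it was called lower by DESeq2 and without Control 2 and DAC+OSI 2, and also in a fit of the OSI and Control libraries without Control 2. The number higher was 2 without Control 1, and the number lower was 3 without Control 2 or Control 3, with 8 higher and 7 lower in the 10-library fit.

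IL11 and LIF, cytokines of the interleukin 6 family, were lower, and STAT3, which such cytokines activate, was higher. IL11 had 23.8, 23.9 and 19.3 CPM in OSI libraries, against 109, 125 and 96.1 CPM in Control libraries, 4.92-fold lower with OSI (adjusted p = 6.0e-07). LIF, another cytokine of the family, averaged 63.4 ± 4.65 CPM in OSI and 216 ± 44.1 CPM in Control (n = 3 each) and fell 3.41-fold (adjusted p = 0.000542). In both genes each OSI library was below each Control library. SOCS2, a feedback inhibitor of cytokine receptors, fell 2.79-fold (adjusted p = 7.4e-05). STAT3 had 137, 144 and 149 CPM in OSI libraries and 79.3, 87.3 and 86.3 CPM in Control libraries (1.7-fold higher, adjusted p = 0.000363). Of 22 members of the JAK, STAT and interleukin 6 list, 7 fell and 3 rose; the number higher was 1 without OSI 1 or OSI 2, with 7 higher and 8 lower in the 10-library fit.

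Genes of DNA replication rose. D-type cyclins bind CDK4 and CDK6 to release E2F factors from RB, and E2F then switches on the genes of DNA replication. With OSI, 34 of 48 replication origin and fork genes rose and none fell, against 10.6% of all genes called higher, with a median log2 fold change of 0.81 and 39 higher and 4 lower in the 10-library fit. In 39 of the 48 every OSI library was above every Control library, against 21.5% of all genes.

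The upstream G1 genes did not move one way. CCND1 (cyclin D1), a known ERK and AP-1 target, had 324, 321 and 285 CPM in OSI libraries, against 457, 484 and 409.6 CPM in Control libraries and was 1.45-fold lower with OSI (adjusted p = 0.00981), and CDK6 was lower as well. CCND3 (cyclin D3) had 144, 139 and 153 CPM in OSI libraries and 60.4, 74.8 and 65.6 CPM in Control libraries, 2.17-fold higher (adjusted p = 0.000416). CCNE2 (cyclin E2), itself an E2F target, rose 4.59-fold (adjusted p = 0.000452). CDKN2C (p18), an inhibitor of CDK4 and CDK6 that E2F also induces, had 12.9, 12.9 and 12.2 CPM in OSI libraries, against 3.5, 3.13 and 3.85 CPM in Control libraries, 3.62-fold higher with OSI (adjusted p = 8.8e-06). CDKN1A (p21) fell 1.63-fold (adjusted p = 0.00109), and CDKN2B (p15), an inhibitor of CDK4 and CDK6, fell 1.87-fold (adjusted p = 0.000131). In total 8 of 19 were higher and 4 lower.

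Of 10 E2F factors and partners, 6 rose and none fell, and the number higher was 3 without Control 3, with 6 higher and 3 lower in the 10-library fit. E2F8, a repressor made in S phase, had 41.8, 42.9 and 40.8 CPM in OSI libraries, against 16, 12.2 and 15.6 CPM in Control libraries, 2.86-fold higher with OSI (adjusted p = 6.2e-06). E2F2, an activator, had 10.1, 11.9 and 11.8 CPM in OSI libraries and 3.18, 3.88 and 4.08 CPM in Control libraries (3.04-fold higher, adjusted p = 6.0e-05). E2F1, also an activator, rose 6.21-fold (adjusted p = 9.8e-06). E2F7, TFDP1 and TFDP2 rose as well, while E2F3, E2F4, E2F5 and E2F6 were not called.

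The promoters of the replication genes were searched for the letters that E2F binds. TTTCCCGC, TTTCGCGC, TTTGCCGC or TTTGGCGC, on either strand, stood within the 250 bases before and 50 bases after the start site in 19 of 42 promoters of the list (45.2%), against 3.33% of all 27305 RefSeq promoters and 5.01% of 11749 promoters of tested protein-coding genes. The share was 6.51% for genes called higher and 3.64% for genes called lower. These matches describe the sequence and were not tested as binding sites. The 160 bases before the start site are shown for PCNA and MCM6 of that list and for E2F1 of the E2F factors (RefSeq, GRCh38.p14, minus strand, read 5′ to 3′), chosen after their values were seen because they cover a clamp, a helicase subunit and a factor. E2F1 is at chr20:33686386-33686545, PCNA at chr20:5126623-5126782 and MCM6 at chr2:135876444-135876603, and capitals mark the matches.
E2F1: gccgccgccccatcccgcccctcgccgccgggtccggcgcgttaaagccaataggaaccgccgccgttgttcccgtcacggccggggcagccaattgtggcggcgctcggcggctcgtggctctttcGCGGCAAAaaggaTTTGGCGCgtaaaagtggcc
PCNA: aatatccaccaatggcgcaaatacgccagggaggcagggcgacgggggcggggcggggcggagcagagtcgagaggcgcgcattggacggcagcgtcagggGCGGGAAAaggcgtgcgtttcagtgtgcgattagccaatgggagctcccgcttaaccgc
MCM6: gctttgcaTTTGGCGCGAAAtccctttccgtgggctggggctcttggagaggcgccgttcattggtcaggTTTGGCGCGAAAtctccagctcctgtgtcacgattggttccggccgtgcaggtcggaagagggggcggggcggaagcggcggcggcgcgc
E2F1 holds matches that begin 33 and 20 bases before the start site, PCNA holds 1 that begins 59 bases before it, and MCM6 holds 4, which overlap in pairs because the letters read as an E2F match on both strands.

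ORC1, the largest subunit of the origin recognition complex, had 38.3, 39.5 and 37.2 CPM in OSI libraries, against 13.4, 15.2 and 14.8 CPM in Control libraries, 2.65-fold higher with OSI (adjusted p = 4.1e-06). PCNA, the sliding clamp of the replication fork, had 307, 272 and 247 CPM in OSI libraries and 102, 135 and 112 CPM in Control libraries (2.37-fold higher, adjusted p = 0.00168). MCM6, a subunit of the replicative helicase, had 76.8, 75.7 and 77.4 CPM in OSI libraries, against 38, 38.6 and 38.8 CPM in Control libraries (1.99-fold higher, adjusted p = 0.000268). In all 3 genes the libraries of the groups were far apart, and the MCM6 values within a group differed little. Enzymes that supply deoxynucleotides rose in 6 of 18 cases, with IMPDH2 lower, a call lost when any 1 of the 6 libraries was left out, and 11 higher and 2 lower in the 10-library fit. TYMS, which makes thymidylate, had 12.2, 10.9 and 9.98 CPM in OSI libraries and 3.76, 3.22 and 3.64 CPM in Control libraries (3.11-fold higher, adjusted p = 9.1e-05). TK1, thymidine kinase, rose 2.52-fold (adjusted p = 3.6e-05).

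Genes of the spindle, mitosis and cytokinesis were higher to a smaller extent, with 16 of 46 called higher, none lower and a median log2 fold change of 0.45. MYBL2 (B-MYB), which with the MuvB complex turns on mitotic genes, had 199, 198 and 217 CPM in OSI libraries, against 71.5, 101 and 77.4 CPM in Control libraries, 2.46-fold higher with OSI (adjusted p = 0.000418). FOXM1, the forkhead factor of the same genes, had 118, 117 and 127 CPM in OSI libraries and 67.4, 78.1 and 73 CPM in Control libraries (1.66-fold higher, adjusted p = 0.000803). Neither overlapped between the groups. KIF20A, a kinesin of cytokinesis, rose 1.84-fold (adjusted p = 0.000324). The count depended on single libraries, at 8 without OSI 2, 9 without Control 2 and 10 without Control 3, OSI 1 or OSI 3, with 28 higher and 2 lower in the 10-library fit. The letters TTTGAA of the cell cycle homology region stood in 71.8% of 39 promoters of these genes and in 15.4% of all promoters, and in 2.38% of the replication promoters.

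**Figure D3:**
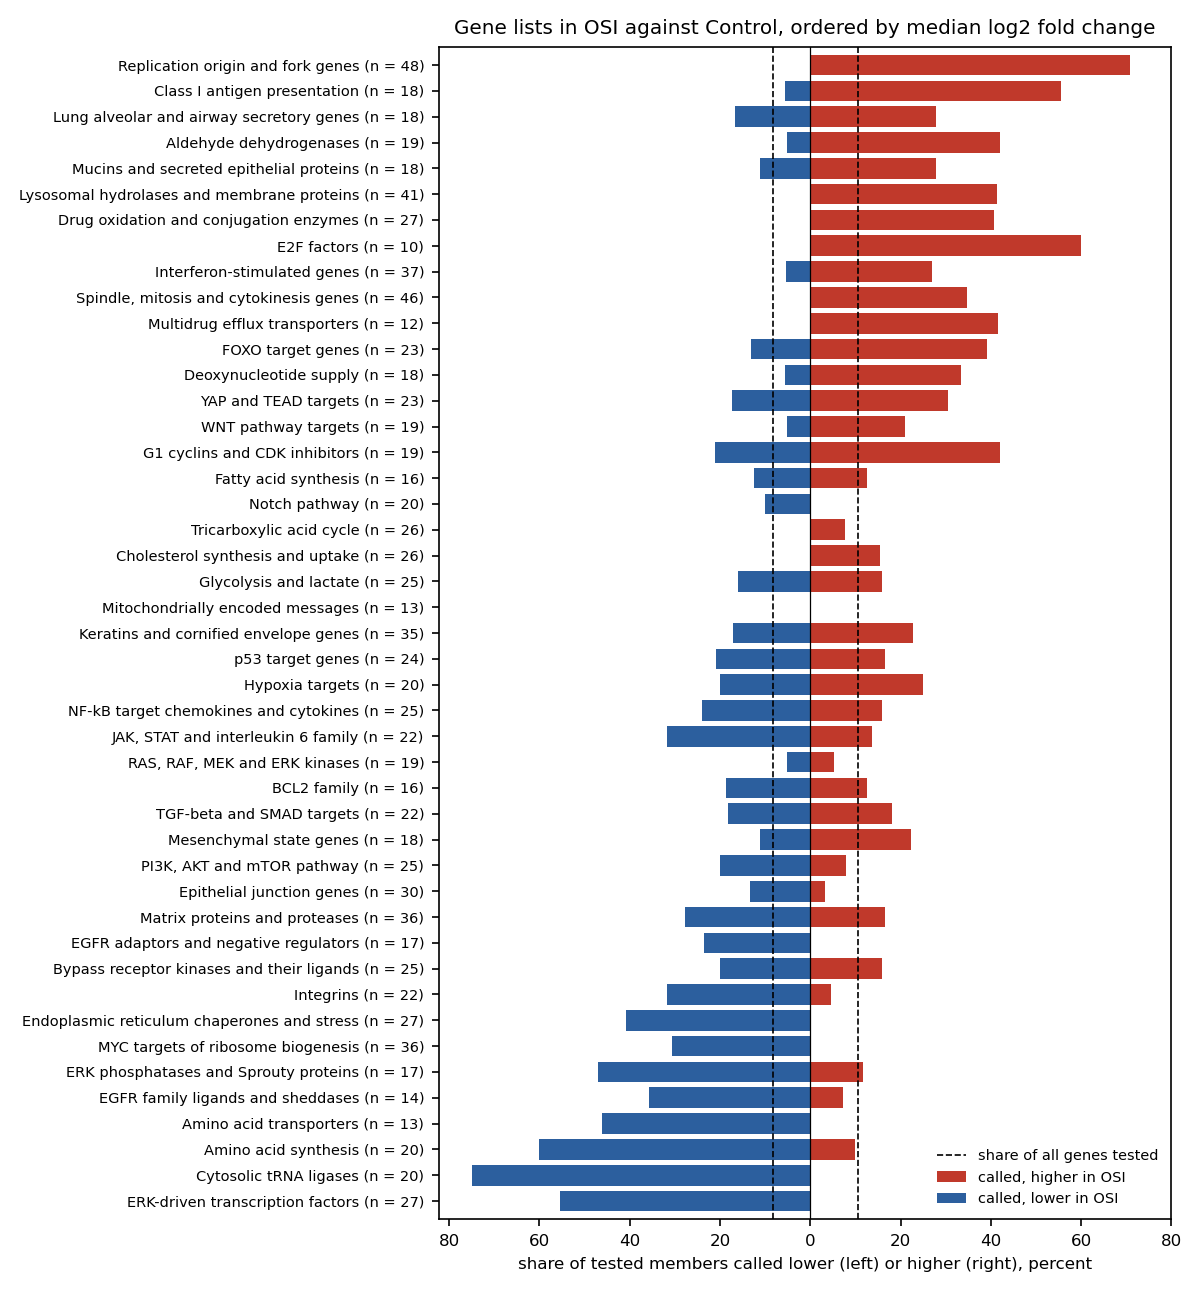
Share of tested members of each gene list with at least 10 tested members, lists of cell type markers left out, that was called lower (blue, left) or higher (red, right) in OSI against Control, in percent, ordered by median log2 fold change; dashed lines are the shares over all genes, 8.23% and 10.6%. Replication genes stand at one end, with 34 of 48 higher, and ERK-driven factors and cytosolic tRNA ligases at the other, with 15 of 27 and 15 of 20 lower.

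Among regulators of apoptosis, changes ran both ways. Of 16 BCL2 family genes 2 rose and 3 fell, against 10.6% and 8.23% of all genes. The median log2 fold change was -0.002, with 4 higher and 4 lower in the 10-library fit. MCL1, an antiapoptotic protein whose mRNA and protein turn over fast, had 189, 186 and 179.9 CPM in OSI libraries, against 336, 291 and 321 CPM in Control libraries and was 1.71-fold lower with OSI (adjusted p = 0.00113). BCL2 itself had 3.66, 3.65 and 3.83 CPM in OSI libraries and 1.69, 1.09 and 1.34 CPM in Control libraries, 2.68-fold higher at a low level (adjusted p = 0.000334). BID, a proapoptotic member cleaved by caspases, rose 1.54-fold (adjusted p = 0.00532), and BCL2L1 and BCL2L2, which protect cells, were lower. BCL2L11 (BIM), the proapoptotic protein that EGFR inhibitors raise in sensitive PC9 cells, was not called. It had 19.2, 19.6 and 20.8 CPM in OSI libraries, against 17.4, 13.5 and 17.6 CPM in Control libraries, a log2 fold change of 0.30 ± 0.15 and a 95% interval of -0.02 to 0.61, and it was called higher after correction for gene GC content.

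Of 24 p53 targets, 4 rose and 5 fell, with 9 higher and 7 lower in the 10-library fit. BTG2, an antiproliferative gene, had 16.1, 13.3 and 18.8 CPM in OSI libraries, against 5.1, 3.98 and 6.05 CPM in Control libraries, 3.19-fold higher with OSI (adjusted p = 0.000523), and SUSD6 rose 1.68-fold (adjusted p = 0.000474), while CDKN1A fell as given above. MDM2, BAX, BBC3 and RRM2B, which p53 induces in most cell types, were not called. MDM2 had a log2 fold change of -0.02 ± 0.17 and a 95% interval of -0.39 to 0.34.

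Lists of growth and protein synthesis had more genes lower than higher with OSI. MYC drives ribosome biogenesis, and of 36 genes of that process 11 fell and none rose, with a median log2 fold change of -0.39. The number lower was 5 without OSI 2 or OSI 3 and 6 without Control 1, with 0 higher and 26 lower in the 10-library fit. DKC1, which modifies ribosomal RNA, had 125, 108 and 103 CPM in OSI libraries, against 191, 179 and 177 CPM in Control libraries (1.63-fold lower, adjusted p = 0.00108). NOLC1, a nucleolar chaperone, had 146, 134 and 128 CPM in OSI libraries and 257, 198 and 217 CPM in Control libraries (1.65-fold lower, adjusted p = 0.00201). Both were apart between the groups, by less than the changes at AREG or FOSL1. POLR1B, a subunit of RNA polymerase I, fell 1.5-fold (adjusted p = 0.00634).

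Cytosolic tRNA ligases, which charge tRNAs with amino acids, fell in 15 of 20 cases with none higher, and the number was 9 without OSI 2 or OSI 3, with 1 higher and 18 lower in the 10-library fit. GARS1, the glycine enzyme, had 174, 163 and 139 CPM in OSI libraries, against 369, 314 and 329 CPM in Control libraries, 2.12-fold lower with OSI (adjusted p = 0.000353). SARS1, the serine enzyme, had 309, 283 and 260.2 CPM in OSI libraries and 488, 602 and 459.8 CPM in Control libraries (1.82-fold lower, adjusted p = 0.000452). For both, all OSI values were below all Control values. Of 20 genes of amino acid synthesis 12 fell and 2 rose, and the number lower was 7 without OSI 3, with 5 higher and 14 lower in the 10-library fit. CTH, which makes cysteine, fell 3.64-fold (adjusted p = 0.000381). SHMT1, the cytosolic serine hydroxymethyltransferase, and GLUL, glutamine synthetase, were the ones that rose: SHMT1 had 93.9, 83.8 and 82.3 CPM in OSI libraries, against 44.8, 44.4 and 43.3 CPM in Control libraries (1.96-fold, adjusted p = 5.0e-05) and GLUL rose 1.81-fold (adjusted p = 0.000139). Amino acid transporters fell in 6 of 13 cases, a number that was 3 without OSI 3, with 1 higher and 8 lower in the 10-library fit. SLC7A5 (LAT1), the carrier of large neutral amino acids, had 254, 292 and 272 CPM in OSI libraries and 606, 883 and 582 CPM in Control libraries (2.53-fold lower, adjusted p = 0.00123).

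ATF4 induces many of these genes from composite C/EBP-ATF elements. TGATGAAA or TGATGCAA, on either strand, stood in 6 of 16 tRNA ligase promoters (37.5%), 3 of 13 amino acid synthesis promoters (23.1%) and 3 of 12 transporter promoters, against 2.0% of all RefSeq promoters and 0.962% of promoters of tested protein-coding genes. Among all genes called lower the share was 2.97%, and among genes called higher 0.35%. The promoters of ASNS (chr7:97872409-97872568) and IARS1 (chr9:92293698-92293857), both on the minus strand of GRCh38.p14, are shown to place the element, chosen after their values were seen, with 160 bases before the start site and the match in capitals.
ASNS: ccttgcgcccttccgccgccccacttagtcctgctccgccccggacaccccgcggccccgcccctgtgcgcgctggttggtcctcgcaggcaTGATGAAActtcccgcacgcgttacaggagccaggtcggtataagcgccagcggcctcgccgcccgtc
IARS1: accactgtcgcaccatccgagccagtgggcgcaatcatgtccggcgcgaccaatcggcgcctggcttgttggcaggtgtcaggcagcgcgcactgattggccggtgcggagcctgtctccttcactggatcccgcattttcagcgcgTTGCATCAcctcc
The match begins 68 bases before the start site in ASNS and 13 bases before it in IARS1, where it reads on the opposite strand. ASNS, asparagine synthetase, had 39.8, 43.7 and 47.4 CPM in OSI libraries, against 90.1, 192 and 95.7 CPM in Control libraries and was 2.89-fold lower with OSI (adjusted p = 0.0299). Control 2 was far above the other Control libraries, which nevertheless stayed above all OSI libraries. IARS1, the isoleucine enzyme, had 203, 207 and 186 CPM in OSI libraries and 314, 302 and 315 CPM in Control libraries (1.56-fold lower, adjusted p = 0.00762).

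Of 27 genes of endoplasmic reticulum chaperones and stress 11 fell and none rose. The number lower was 7 without OSI 1 or OSI 2, with 1 higher and 18 lower in the 10-library fit. The list held stress-induced factors as well as chaperones and sensors. ATF4 and DDIT3 were among those factors, with log2 fold changes of -0.66 and -0.82. ERN1 (IRE1), a sensor of unfolded proteins, had 14.5, 17.5 and 17.8 CPM in OSI libraries, against 36.3, 42.3 and 37.6 CPM in Control libraries, 2.33-fold lower with OSI (adjusted p = 0.000109). HYOU1, a chaperone of the lumen, fell 1.77-fold (adjusted p = 9.8e-05).

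Genes of energy metabolism moved both ways, and their list counts are to be read against 10.6% of all genes called higher and 8.23% lower. HK2 (hexokinase 2), which traps glucose in the cell and is a target of MYC and of hypoxia, had 39.2, 38.2 and 34.8 CPM in OSI libraries, against 102, 130.2 and 96.2 CPM in Control libraries, 2.92-fold lower with OSI (adjusted p = 0.000814). The glycolytic genes ALDOC and ENO2 went the other way, 2.39-fold (adjusted p = 0.00105) and 1.9-fold (adjusted p = 0.00203) higher, and 4 of 25 glycolytic genes were higher and 4 lower. The number higher was 2 without Control 1 or OSI 2, with 14 higher and 6 lower in the 10-library fit. VEGFA, the angiogenic factor induced by hypoxia and by EGFR, had 103, 109 and 109 CPM in OSI libraries and 251, 274 and 225 CPM in Control libraries (2.34-fold lower, adjusted p = 2.1e-05), whereas the hypoxia targets ADM and HILPDA rose 2.01-fold and 1.92-fold. Of 20 hypoxia targets 5 rose and 4 fell, the number higher was 3 without Control 1 or OSI 1, and the number lower was 1 without OSI 2 and 2 without Control 3, OSI 1 or OSI 3, with 8 higher and 5 lower in the 10-library fit. In the tricarboxylic acid cycle IDH2, the mitochondrial isocitrate dehydrogenase, rose 2.56-fold (adjusted p = 0.000379). The cycle as a list had 2 of 26 higher and 0 lower, below the shares of all genes. It had 1 higher when any 1 of the 6 libraries was left out, and 11 higher and 5 lower in the 10-library fit. The mitochondrial share of reads was 15.6%, 14.3% and 18.6% in OSI libraries and 15.6%, 13.5% and 15.4% in Control libraries. Of 26 sterol genes 4 rose, and TM7SF2, a sterol reductase, had 34.3, 36 and 32.1 CPM in OSI libraries, against 13.1, 15.2 and 13.5 CPM in Control libraries (2.45-fold higher, adjusted p = 0.00263). The sterol count was 1 without Control 1 and 2 without OSI 2 or OSI 3, with 8 higher and 4 lower in the 10-library fit. In fatty acid synthesis ACACB, the carboxylase that makes malonyl-CoA at mitochondria, rose 2.5-fold (adjusted p = 0.00030), SCD5, a desaturase, rose 2.38-fold (adjusted p = 0.000674), and ELOVL1, an elongase, and ACSS2, an acetyl-CoA synthetase, fell 1.53-fold (adjusted p = 0.0276) and 1.39-fold (adjusted p = 0.0189). Those were the members called of 16, and the number lower was 0 without OSI 2 or OSI 3 and 1 without Control 2, Control 3 or OSI 1, with 8 higher and 4 lower in the 10-library fit.

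Lysosomal genes rose: 17 of 41 hydrolases and membrane proteins were higher and none lower, with a median log2 fold change of 0.51. CTSF, a cysteine protease of the lysosome, had 96.5, 85.5 and 83.8 CPM in OSI libraries, against 21.9, 23.4 and 22.9 CPM in Control libraries, 3.9-fold higher with OSI (adjusted p = 9.5e-07). CTSH, another, had 257, 231 and 273 CPM in OSI libraries and 83.9, 88.6 and 87.2 CPM in Control libraries (2.93-fold higher, adjusted p = 1.6e-06). In both the groups were far apart. GPNMB, a lysosomal glycoprotein induced by MITF and TFE factors, had 12.1, 13.1 and 12.1 CPM in OSI libraries, against 0.924, 0.592 and 0.974 CPM in Control libraries, 14.9-fold higher (adjusted p = 1.1e-07). The count was 11 without Control 1, Control 3, OSI 1, OSI 2 or OSI 3, with 35 higher and 2 lower in the 10-library fit.

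Genes of antigen presentation and part of the interferon-stimulated genes were higher. Of 18 class I genes 10 rose and 1 fell, against 10.6% and 8.23% of all genes. In 14 every OSI library was above every Control library, against 21.5% of all genes. The number higher was 7 to 11 when 1 library was left out, with 15 higher and 1 lower in the 10-library fit. TAP1, a subunit of the peptide transporter, had 27.9, 22.8 and 25.2 CPM in OSI libraries, against 13, 14.6 and 16.3 CPM in Control libraries, 1.73-fold higher with OSI (adjusted p = 0.00092). TAPBP (tapasin), which loads peptides, had 144, 135 and 151 CPM in OSI libraries and 88.7, 97.5 and 96.5 CPM in Control libraries (1.52-fold higher, adjusted p = 0.00192). B2M, the light chain of class I, rose 1.88-fold (adjusted p = 0.000556). Reads of the class I heavy chain genes HLA-C, HLA-E and HLA-F, which also rose, could be shared among these near-identical genes.

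Interferon-stimulated genes rose in 10 of 37 cases and fell in 2, against 10.6% and 8.23% of all genes. The number higher was 6 without Control 2 or OSI 1, and the number lower was 1 without Control 1, Control 3, OSI 1, OSI 2 or OSI 3. The 10-library fit had 14 higher and 3 lower. The mean log2 CPM of the list was 3.24, 2.71 and 2.45 in OSI libraries. It was 2.49, 2.32 and 2.54 in Control libraries, so OSI 3 lay below Control 1 and Control 3. GBP2, a guanylate-binding protein, had 14.3, 14.2 and 12.2 CPM in OSI libraries, against 5.28, 3.74 and 6.84 CPM in Control libraries (2.56-fold higher, adjusted p = 0.000433). BST2 (tetherin), which holds virions at the membrane, had 242, 203 and 205 CPM in OSI libraries and 121, 131 and 131 CPM in Control libraries (1.7-fold higher, adjusted p = 0.000437). ISG20, an exonuclease also induced by other signals, fell 4.81-fold (adjusted p = 5.8e-06). ISG15, among the most general of these genes, was not called, with a log2 fold change of 0.25 ± 0.34 and a 95% interval of -0.48 to 0.99. The core of the interferon-stimulated response element (GAAA, any 2 letters, GAAA, either strand) stood in 7 of 14 class I promoters and 18 of 28 promoters of interferon-stimulated genes (64.3%), against 3.65% of all promoters. Among genes called higher the share was 2.66% and among genes called lower 3.84%. B2M (chr15:44711357-44711516, plus strand) and TAP1 (chr6:32853705-32853864, minus strand) are shown with 160 bases before the start site, since both genes rose, and overlapping matches run together in the capitals.
B2M: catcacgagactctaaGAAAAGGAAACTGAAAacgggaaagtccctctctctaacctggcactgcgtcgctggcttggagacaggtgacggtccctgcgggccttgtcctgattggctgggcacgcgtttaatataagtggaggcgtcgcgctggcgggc
TAP1: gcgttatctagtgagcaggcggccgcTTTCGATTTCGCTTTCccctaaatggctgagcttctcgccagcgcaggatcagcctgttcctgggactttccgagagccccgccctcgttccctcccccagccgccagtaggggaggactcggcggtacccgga
The matches begin 144 and 138 bases before the start site in B2M and 134 and 128 bases before it in TAP1.

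Of 25 NF-kB targets 4 rose and 6 fell, against 10.6% and 8.23% of all genes. The 10-library fit had 6 higher and 7 lower. ICAM1, an adhesion molecule for leukocytes, had 56.8, 56 and 59.2 CPM in OSI libraries, against 15, 17.5 and 16.6 CPM in Control libraries, 3.5-fold higher with OSI (adjusted p = 2.6e-06). CSF1, the macrophage growth factor, rose 2.37-fold (adjusted p = 0.000297), and the interleukin IL1B, at 1.41 CPM in OSI and 2.92 CPM in Control on average, fell 2.06-fold (adjusted p = 0.00206).

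Integrins were more often lower than higher, and matrix genes moved both ways. LAMA3 encodes a chain of the laminin that anchors epithelial cells, and ITGA6 encodes the integrin chain that binds it. LAMA3 had 39.4, 44.6 and 43.1 CPM in OSI libraries and 121, 115 and 121 CPM in Control libraries (2.81-fold lower, adjusted p = 1.1e-06). ITGA6 had 69.2, 69.2 and 63.5 CPM in OSI libraries, against 385, 273 and 341 CPM in Control libraries, 4.95-fold lower (adjusted p = 5.3e-07). Both were far apart between the groups. FERMT1 (kindlin-1), which activates integrins in epithelia, had 48.7, 56 and 50.2 CPM in OSI libraries and 425, 354 and 371 CPM in Control libraries (7.43-fold lower, adjusted p = 1.4e-07). ITGA5 and ITGB1, chains of the fibronectin receptor, fell 1.69-fold (adjusted p = 0.000238) and 1.6-fold (adjusted p = 0.00435). Of 22 integrins 7 fell, and ITGB8 was the one that rose, a call lost without Control 1, Control 2, OSI 1, OSI 2 or OSI 3, and the list had 3 higher and 10 lower in the 10-library fit. Of 36 matrix proteins and proteases 10 fell and 6 rose, with 11 higher and 13 lower in the 10-library fit. SPP1 (osteopontin) was among those that rose, with 559, 439 and 586 CPM in OSI libraries, against 105, 117 and 119.9 CPM in Control libraries (4.64-fold, adjusted p = 1.0e-06).

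Targets of YAP, TGF-beta and WNT moved both ways. Their list counts and those of the Notch list stand against 10.6% of all genes called higher and 8.23% lower. Among YAP and TEAD targets 7 of 23 rose and 4 fell, with 13 higher and 6 lower in the 10-library fit. ANKRD1, a common reporter of YAP, had 26.4, 24.2 and 21.2 CPM in OSI libraries, against 8.38, 7.2 and 8.11 CPM in Control libraries, 3.03-fold higher with OSI (adjusted p = 9.0e-06), and CCN2, another, rose 2.48-fold (adjusted p = 0.000133). NT5E (CD73), which makes adenosine outside the cell, fell 1.95-fold (adjusted p = 0.000133). Among 22 TGF-beta targets 4 rose and 4 fell, with 8 higher and 6 lower in the 10-library fit. ID3, a target of the BMP branch, had 20.5, 19.2 and 21 CPM in OSI libraries and 5.56, 6.25 and 4.98 CPM in Control libraries (3.61-fold higher, adjusted p = 5.1e-06), and the activin subunit INHBA fell 2.74-fold (adjusted p = 2.4e-05). In the Notch pathway the ligand JAG1 had 35.5, 36.8 and 36.5 CPM in OSI libraries, against 104, 109.6 and 93.9 CPM in Control libraries (2.83-fold lower, adjusted p = 2.3e-05), the modifier MFNG fell 2.95-fold (adjusted p = 0.000608), and the targets HES1, HEY1 and NRARP were not called. JAG1 and MFNG were the members called of 20, near the share of all genes called lower, with 8 higher and 4 lower in the 10-library fit. The WNT inhibitors DKK1 and DKK3 rose 2.46-fold (adjusted p = 0.000167) and 2.15-fold (adjusted p = 0.000175), and the ligand WNT7A fell 3.47-fold (adjusted p = 0.000803). Of 19 genes of the WNT list 4 rose and 1 fell, with 6 higher and 3 lower in the 10-library fit.

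Epithelial identity genes changed one by one. MUC1, a membrane mucin of glandular epithelium, had 99.4, 104 and 146 CPM in OSI libraries, against 23.9, 33.8 and 26.9 CPM in Control libraries, 4.13-fold higher with OSI (adjusted p = 0.000392). MUC20, which has near copies in the genome that could share its reads, had 177, 164 and 194 CPM in OSI libraries and 47.3, 54.1 and 51.4 CPM in Control libraries (3.5-fold higher, adjusted p = 1.7e-05). Both were apart, and OSI 3 was the highest library for MUC1. WFDC2 (HE4), a secreted airway protein, rose 3.57-fold (adjusted p = 0.000279). BPIFB1, a protein of airway secretions, had 75.4, 67.3 and 77.8 CPM in OSI libraries, against 8.73, 13.4 and 10.3 CPM in Control libraries, 6.79-fold higher (adjusted p = 2.9e-05). SPDEF, the factor of goblet cells, rose 3.2-fold (adjusted p = 7.8e-05), and LPCAT1, which makes surfactant lipid, rose 1.78-fold (adjusted p = 0.000164). Of 18 lung genes tested 5 rose and 3 fell, against 10.6% and 8.23% of all genes. The number lower was 1 without Control 2, with 6 higher and 3 lower in the 10-library fit. The surfactant genes SFTPB and SFTPC were below the filter. Of 18 mucins and secreted proteins 5 rose and 2 fell, the number lower was 1 without Control 3, OSI 1 or OSI 2, with 7 higher and 4 lower in the 10-library fit.

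Among keratins and genes of the cornified envelope 8 of 35 rose and 6 fell, and the number higher was 4 without Control 1 and 5 without Control 3 or OSI 1, with 14 higher and 10 lower in the 10-library fit. KRT4, a keratin of squamous epithelium, had 27.1, 19.5 and 25.6 CPM in OSI libraries, against 1.34, 1.16 and 1.58 CPM in Control libraries (17.7-fold higher, adjusted p = 1.1e-07). PI3 (elafin), a protease inhibitor, rose 2.35-fold (adjusted p = 0.000302), and KRT6A, one of several near-identical genes, fell 4.94-fold (adjusted p = 0.000175). Of 18 mesenchymal genes 4 rose and 2 fell, against 10.6% and 8.23% of all genes. The median log2 fold change was -0.03, with 5 higher and 3 lower in the 10-library fit. In that list MYL9, a myosin light chain of contractile cells, had 121, 115 and 138 CPM in OSI libraries and 23, 24.1 and 23.6 CPM in Control libraries, 5.28-fold higher with OSI (adjusted p = 1.5e-07). TAGLN, an actin-binding protein of such cells, rose 2.51-fold (adjusted p = 4.2e-05). ZEB1, which represses epithelial genes, was lower, with 1.18, 1.08 and 0.791 CPM in OSI libraries, against 4.02, 3.22 and 5.05 CPM in Control libraries (4.03-fold, adjusted p = 0.00144). Of 30 junction genes CLDN1 rose 1.42-fold (adjusted p = 0.00828) and 4 fell, CLDN12 and the splicing factor ESRP1 among them, at 1.56-fold (adjusted p = 0.0038) and 1.56-fold (adjusted p = 0.00999). The junction genes lower were 2 without Control 1, Control 3, OSI 1, OSI 2 or OSI 3, with 12 higher and 9 lower in the 10-library fit.

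Among enzymes that handle aldehydes and drugs more transcripts were higher than lower. Of 19 aldehyde dehydrogenases 8 rose and ALDH2 fell, the number higher was 5 without Control 1 or Control 3, and the number lower was 0 without Control 1, Control 2, OSI 1, OSI 2 or OSI 3, with 13 higher and 1 lower in the 10-library fit. ALDH1A1, which makes retinoic acid and marks some stem-like tumour cells, had 22.6, 15.4 and 20.5 CPM in OSI libraries, against 3.08, 6.84 and 4.68 CPM in Control libraries, 4.02-fold higher with OSI (adjusted p = 0.000257). ALDH7A1 and ALDH1B1 rose 1.87-fold (adjusted p = 0.000433) and 2.08-fold (adjusted p = 0.000692). Of 27 drug oxidation and conjugation enzymes 11 rose and none fell, and the number higher was 6 without OSI 3 and 7 without Control 1 or OSI 2, with 16 higher and 1 lower in the 10-library fit. EPHX1, the microsomal epoxide hydrolase, had 531, 489.8 and 581 CPM in OSI libraries and 183, 204 and 206 CPM in Control libraries (2.7-fold higher, adjusted p = 2.9e-06). AKR1B10, an NRF2-induced reductase, rose 1.87-fold (adjusted p = 0.000247), and UGT1A1, which shares exons with the other UGT1A genes and so cannot be told from them, rose 2.25-fold (adjusted p = 6.0e-05).

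Of 12 efflux transporters 5 rose and none fell, with 9 higher and 1 lower in the 10-library fit. ABCC4, an exporter of nucleotides and drugs, had 88.1, 83.8 and 85.9 CPM in OSI libraries, against 50.5, 36.1 and 48.7 CPM in Control libraries, 1.91-fold higher with OSI (adjusted p = 0.00116). ABCG1, a sterol exporter, rose 2.25-fold (adjusted p = 0.00321), and ABCC6, which has pseudogene copies, rose 2.68-fold (adjusted p = 0.000803). ABCB1 (P-glycoprotein), the classic multidrug pump, was low in every library, with 0.241, 0.29 and 0.299 CPM in OSI libraries, against 0.356, 0.663 and 0.371 CPM in Control libraries and a 95% interval of -1.91 to 0.46 on the log2 scale. APOBEC3B, a cytidine deaminase that mutates tumour DNA, had 52.8, 55.1 and 50.6 CPM in OSI libraries and 24.2, 25.4 and 24.1 CPM in Control libraries, 2.15-fold higher with OSI (adjusted p = 8.2e-05). APOBEC3H rose 2.95-fold (adjusted p = 0.000901), and the other 5 members were not called.

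The largest gain in CPM was of FTL, the light chain of the iron store ferritin, and the largest loss was of HMGA1, a chromatin protein of proliferating and embryonic cells. FTL had 6395, 6027 and 5996 CPM in OSI libraries, against 2512, 3017 and 2419 CPM in Control libraries, 2.32-fold higher with OSI (adjusted p = 1.6e-05). HMGA1 had 1425, 1357 and 1550.3 CPM in OSI libraries and 4488, 5975 and 4293 CPM in Control libraries, 3.41-fold lower with OSI (adjusted p = 2.9e-05). Both have many processed pseudogenes that could take or give reads. AKR1B1, an aldose reductase, had 1063, 915 and 916 CPM in OSI libraries, against 478, 515 and 502 CPM in Control libraries (1.94-fold higher, adjusted p = 0.0031). CD44, a hyaluronan receptor, had 1130.0, 1142 and 1191 CPM in OSI libraries and 1692, 1768 and 1739 CPM in Control libraries (1.5-fold lower, adjusted p = 0.00214), and ANXA2 and OGT, a membrane annexin and the enzyme that adds O-GlcNAc, were also among the largest losses, at 1.63-fold and 1.94-fold.

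By fold, the largest rises above 5 CPM were of PLEKHS1, an adaptor with a pleckstrin domain, and the placental alkaline phosphatase ALPP, whose near copy ALPG could share its reads. PLEKHS1 had 5.86, 5.49 and 6.39 CPM in OSI libraries, against 0.146, 0.142 and 0.232 CPM in Control libraries, 34.1-fold higher with OSI (adjusted p = 6.5e-07). ALPP had 253, 223 and 267 CPM in OSI libraries and 9.56, 7.77 and 8.69 CPM in Control libraries, 28.5-fold higher (adjusted p = 9.8e-09). SLC30A2, a zinc transporter, had 8.41, 10 and 10.4 CPM in OSI libraries, against 0.713, 0.71 and 0.579 CPM in Control libraries (14.3-fold higher, adjusted p = 8.8e-07). In all 3 the highest Control library was far below the lowest OSI library. NPNT, DUSP15, BCAS1, LYPD5, FREM2, PNCK, OLR1, INSL4, KRT4, GPNMB, ALPG and IGFL2-AS1, an antisense transcript whose reads may be those of IGFL2, complete the 15 largest rises, between 8.08-fold for INSL4 and 19.9-fold for ALPG.

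The largest falls were led by the interleukin 33 receptor IL1RL1 (14.3-fold), the long noncoding RNA LINC-PINT (12.3-fold) and the matrix protein TNC (11.8-fold). NAV3, a microtubule-binding protein, had 8.65, 9.7 and 9.32 CPM in OSI libraries, against 88.4, 91.3 and 71.9 CPM in Control libraries, 9.09-fold lower with OSI (adjusted p = 1.2e-07). IGFN1, a protein with immunoglobulin and fibronectin domains, had 53.9, 71 and 61.2 CPM in OSI libraries and 499, 564 and 491 CPM in Control libraries, 8.34-fold lower (adjusted p = 6.5e-07). EFNB2, an ephrin ligand, had 4.53, 4.21 and 3.4 CPM in OSI libraries, against 34.2, 22.7 and 23.6 CPM in Control libraries (6.64-fold lower, adjusted p = 3.8e-06). AOX1, an aldehyde oxidase that is also a drug enzyme, fell 6.16-fold (adjusted p = 1.2e-07), opposite to the listed drug enzymes. Among long noncoding RNAs UCA1 had 306, 255 and 343 CPM in OSI libraries and 47.2, 36.7 and 42.5 CPM in Control libraries (7.15-fold higher, adjusted p = 6.3e-07), and NEAT1, the scaffold of paraspeckles, had 1023, 1058 and 918 CPM in OSI libraries, against 465, 420.0 and 415 CPM in Control libraries (2.31-fold higher, adjusted p = 0.000129). MIR100HG, the host transcript of a microRNA cluster, fell 10.8-fold (adjusted p = 6.5e-06).

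Some markers of other cell types given above also moved between the groups. Of the 11 immune markers 5 fell and 1 rose, and the number lower was 1 without Control 1 or OSI 2 and 2 without OSI 1. NKG7 had 0.675, 0.642 and 0.94 CPM in OSI libraries, against 2.92, 1.85 and 2.69 CPM in Control libraries and CD3E 0.53, 0.435 and 0.62 CPM in OSI libraries and 2.06, 1.44 and 1.51 CPM in Control libraries, both lower with OSI. Each stood at a few CPM or less in every library. CDH5, an endothelial cadherin, had 11, 8.58 and 11.2 CPM in OSI libraries, against 3.55, 3.48 and 3.57 CPM in Control libraries (2.9-fold higher, adjusted p = 8.9e-05). Their part in the gene list results was not tested.

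The same drug was also added to cells given dauricine, and DAC+OSI against DAC uses none of the libraries of OSI against Control. There, 2211 genes were called (10.6%), 1269 higher (6.1%) and 942 lower (4.52%). Of the genes called with OSI alone, 1273 were called in the same direction with dauricine present, which is 32.4% of the calls with OSI alone and 57.6% of those with dauricine, and 85 were called in the opposite direction. The sign was the same for 82.8% of the genes called with OSI alone and for 65.8% of all genes tested. The difference between the effects was itself called for 608 genes (2.92%), above 0 for 211 (1.01%) and below 0 for 397 (1.91%). Of these, 490 had been called with OSI alone: 309 had the opposite sign with dauricine, 179 the same sign and a smaller change, and 2 the same sign and a larger change. The 490 were chosen by their change with OSI alone, which also enters the difference. That choice favours smaller or opposite changes with dauricine, so the split does not show how common they are. Single libraries moved these counts. The number called with dauricine was 1092, 1033 and 1224 without DAC 1, DAC 2 and DAC 3. The number of differences called was 1488 without DAC+OSI 2 and 331 to 377 without DAC 1, DAC 2, DAC 3, OSI 1, OSI 2 or OSI 3. In the 10-library fit 5112 genes were called with dauricine, 12.7% higher and 11.9% lower, and 4328 differences, 9.51% above 0 and 11.3% below 0. DAC+OSI 2 carried the GC trend given above, and the DAC+OSI libraries also held up to 95.05 CPM of fibroblast markers and 78.9 CPM of immune markers, against up to 11.2 CPM and 41.1 CPM in DAC libraries; their part in these results was not tested.

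Mitotic genes and some replication genes were among those that reversed. Of 48 replication genes none was higher and 7 lower in DAC+OSI against DAC, the median log2 fold change was -0.26, and the difference from the effect of OSI alone was called for 22. Of 46 mitotic genes 36 were lower with dauricine present, none was higher, the median was -1.04, and the difference was called for 31. ORC1 had 6.9, 6.91 and 6.44 CPM in DAC+OSI libraries and 9.83, 11 and 10.3 CPM in DAC libraries, a log2 fold change of -0.62 (adjusted p = 0.00428), so the sign was opposite to that of OSI alone. KIF20A had 9.07, 9.87 and 7.64 CPM in DAC+OSI libraries and 19.6, 21.6 and 19.4 CPM in DAC libraries, a change of -1.20 (adjusted p = 0.000109). The differences from OSI alone were -2.03 (adjusted p = 0.000101) and -2.08 (adjusted p = 0.000151) on the log2 scale. In the 10-library fit 15 replication genes were lower and 2 higher with dauricine, and the difference was called below 0 for 39 and above 0 for 2. The same fit had 43 mitotic genes lower and none higher, and the difference called below 0 for 43. APOBEC3B also reversed, with 7.56, 5.59 and 7.34 CPM in DAC+OSI libraries and 9.99, 11.6 and 10.9 CPM in DAC libraries and a difference of -1.76 (adjusted p = 0.00039).

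**Figure D4:**
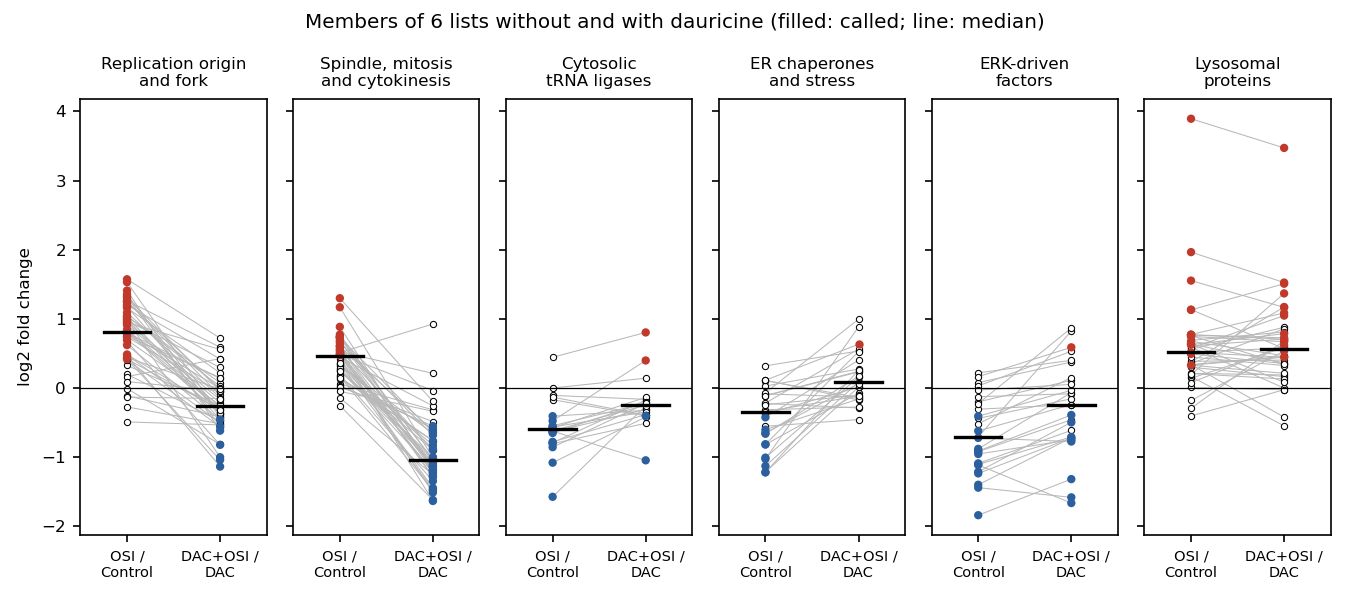
Log2 fold change of each tested member of 6 gene lists in OSI against Control (left) and in DAC+OSI against DAC (right); lines join the same gene, filled points were called (red higher, blue lower), open points were not, and thick bars are medians. Replication and mitotic genes lie mostly above 0 on the left and mostly below it on the right, while lysosomal genes lie mostly above 0 on both sides.

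Differences were called in other groups as well. Of 27 genes of endoplasmic reticulum chaperones and stress none was lower and 1 was higher with dauricine present. The difference was called for 9, against 17 in the 10-library fit, where 8 were higher and 1 lower with dauricine. VEGFA had 265, 343 and 293 CPM in DAC+OSI libraries and 221, 221 and 209.8 CPM in DAC libraries, a log2 fold change of 0.47 (adjusted p = 0.0272) where OSI alone had lowered it, and the difference was 1.69 (adjusted p = 0.000345). SLC7A5 had 335, 650.2 and 388 CPM in DAC+OSI libraries and 367, 403 and 342 CPM in DAC libraries and a difference of 1.64 (adjusted p = 0.0146). For ERK-driven factors 9 of 27 were lower and 1 higher, and the difference was called for 2, against 6 in the 10-library fit, where 14 were lower and 2 higher.

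Lysosomal genes rose with dauricine present too. With dauricine present 16 of 41 lysosomal genes were higher and none lower, with a median of 0.57, and 9 of 18 class I genes were higher and 1 lower. Of 37 interferon-stimulated genes 2 were higher and 1 lower with dauricine, against 6.1% and 4.52% of all genes. In the 10-library fit 33 lysosomal genes were higher and 3 lower with dauricine, and the difference was called below 0 for 16 and above 0 for 4, against 3 in all with 12 libraries. LAMA3 had 43.6, 43.9 and 42.8 CPM in DAC+OSI libraries and 87.6, 86 and 83.2 CPM in DAC libraries, a log2 fold change of -0.98 (adjusted p = 8.3e-05) and a difference from OSI alone of 0.51 (adjusted p = 0.0787), which was not called. ALPP rose with dauricine present as well, with 34.9, 34.6 and 32.1 CPM in DAC+OSI libraries and 5.89, 4.14 and 5.37 CPM in DAC libraries, but by less: the difference was -2.11 (adjusted p = 0.000259).

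**Figure D5:**
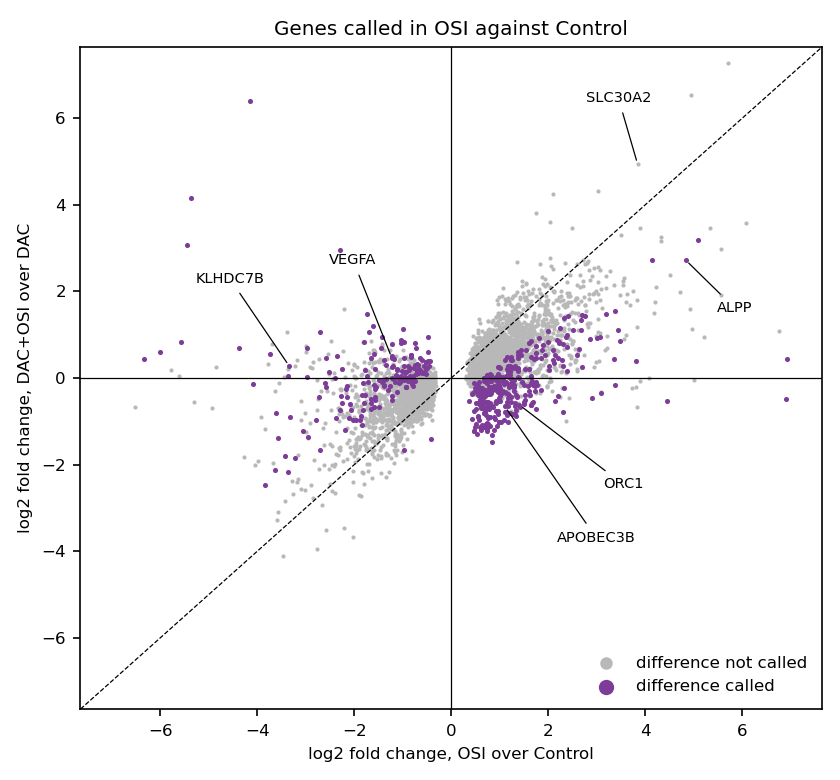
Log2 fold change of OSI over Control (horizontal) and of DAC+OSI over DAC (vertical) for the 3926 genes called in OSI against Control; purple points are the 490 genes whose difference was called, and the dashed line marks equal changes. Genes such as ORC1 and APOBEC3B lie to the right of 0 and below it, VEGFA and KLHDC7B to the left and above, and SLC30A2 and ALPP rose in both.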

How the data were processed

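Poly(A) mRNA of PC9-OR cells was captured with oligo(dT) beads, fragmented, primed with random hexamers and amplified by PCR, per the labels' protocols. The values the authors deposited are unnormalized read counts for 39266 Ensembl genes. CASAVA, HISAT2 and featureCounts are named in the submitters' processing notes. Their versions and settings, the genome build, the annotation and the strand setting were not given in the sources used here. Overlapping genes on opposite strands may therefore share reads. Symbols matched 39178 identifiers, and gene types, lengths and GC content came from GENCODE 29 (37919 matched). Promoters are RefSeq, GRCh38.p14, and 11749 of 14733 tested protein-coding genes matched one.

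Genes were filtered with filterByExpr and scaled by TMM, and edgeR 4.0.16 (R 4.3.3) fitted 1 mean per group to all 12 libraries. The biological coefficient of variation was 20.9%. SE was the size of a log2 fold change over the square root of its quasi-likelihood F. Tests were two-sided and repeated with limma 3.58.1 voom and DESeq2 1.42.0. CPM values are on the TMM scale. No library pair of a group agreed within counting noise. Each library was entered in the fit as 1 sample, which does not show that the libraries came from separate cultures. Same-numbered OSI and Control libraries did not deviate together (correlations 0.01 to 0.03), nor did DAC+OSI and DAC (0 to 0.01), but Control and DAC+OSI did (0.29, 0.43 and 0.2), so all comparisons were also fitted with a replicate block. The labels do not say what a number marks. Control 2 and DAC+OSI 2 also shared the rising GC trend given above, and its part in those correlations was not tested.

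The comparison, the 52 gene lists and the tests were chosen with earlier results of these data known. Named genes are the 15 largest rises and falls among called genes with a mean of at least 5 CPM and no overlap, the 3 called members of each list with the smallest adjusted p, genes of interest, the 8 largest gains and losses of mean CPM, and the 5 largest rises and falls of long noncoding RNAs with at least 1 CPM. Others were chosen after their values were seen: FGFR3, LIF, CCNE2, EGF, PCNA, MCM6, ASNS, IARS1, and members listed by name without values or named for not passing the test. Some genes that these rules select are not reported here.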

Additional observations from a re-analysis of the deposited data

Results flagged for a closer look

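The effect of OSI in DAC+OSI against DAC was compared with its effect in OSI against Control by the interaction term of the edgeR fit, and 58 genes named above had an adjusted p under 0.05 for that difference. Each value is the log2 fold change with dauricine minus the log2 fold change without it, so a negative value for a gene that OSI raised means a smaller or reversed rise. Over all genes tested the difference was called for 2.92%. Genes named for their change with OSI alone were chosen by values that also enter the difference. That choice favours smaller or reversed changes with dauricine, most of all for the largest rises and falls.

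In the cell cycle and replication the difference was -2.13 for CDKN2C, -2.02 for E2F8, -1.96 for E2F1, -1.90 for E2F2, -2.03 for ORC1, -1.72 for TK1, -2.25 for TYMS, -2.08 for KIF20A, -1.49 for MYBL2, -1.37 for FOXM1, -1.45 for MCM6, -1.27 for PCNA, -1.91 for E2F7 and -2.62 for CCNE2, all raised by OSI alone, and 0.85 for CDKN1A and 1.34 for SESN2, both lowered by it. Among signalling, metabolic and stress genes that OSI alone lowered it was 0.99 for DUSP6, 0.72 for KLF6, 2.15 for DDIT4, 1.64 for SLC7A5, 0.74 for HYOU1, 1.23 for ERN1, 1.42 for ACSS2, 0.82 for KLF4, 1.96 for LIF, 1.69 for VEGFA, 1.84 for ISG20, 2.64 for WNT7A and 1.62 for NKG7. Among genes of adhesion, secretion and epithelial identity that OSI alone raised it was -0.87 for ICAM1, -1.39 for ID3, -1.61 for DKK1, -1.37 for SPP1, -1.02 for PI3, -1.84 for SPDEF and -1.43 for KRT4, and for NT5E, which fell further with dauricine present, it was -0.69. Enzymes, transporters and the deaminase that OSI alone raised had -1.32 for SCD5, -1.82 for ALDH1A1, -0.91 for ALDH7A1, -0.79 for EPHX1, -1.02 for UGT1A1, -1.17 for AKR1B10, -0.97 for ABCC4 and -1.76 for APOBEC3B.

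Among the genes with the largest rises the difference was -1.91 for PLEKHS1, -2.11 for ALPP, -2.63 for NPNT, -2.33 for IGFL2-AS1, -1.72 for BCAS1 and -2.12 for FREM2, and it was -1.05 for NEAT1. Among those with the largest falls it was 1.38 for IL1RL1, 1.5 for LINC-PINT, 2.19 for TNC, 1.63 for MIR100HG, 3.62 for KLHDC7B and 1.84 for IGFN1. KLHDC7B had the largest difference of the genes named, with a log2 fold change of -3.34 with OSI alone and 0.28 with dauricine present.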

How the results depend on the processing

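For OSI against Control, scaling by relative log expression or upper quartile, no count filter, DESeq2, limma-voom, a fit of the 6 libraries alone and a correction for gene GC content gave 3885, 3886, 4266, 4911, 4056, 4906 and 5868 calls against 3926. Without Control 2 and DAC+OSI 2 there were 9084, and 8303 from OSI and Control libraries alone without Control 2, a fit chosen after seeing the data; leaving out 1 library at a time gave 2659 to 3701. A replicate block, run because same-numbered Control and DAC+OSI libraries deviated together, gave 4403 calls, with 2688 for OSI with dauricine present and 791 for the difference, and it shared 3823, 2158 and 596 of the calls made without it. Among the differences of named genes the block ended the call of NKG7 (adjusted p = 0.0593 by edgeR). For OSI with dauricine present (2211 calls) DESeq2 gave 3394, the 6 libraries alone 784 and the 10 libraries 5112, and leaving out 1 library gave 1033 to 2825. For the difference (608 calls) no count filter gave 1354, DESeq2 1318 and the 10 libraries 4328, and leaving out 1 library gave 331 to 1488. The cause of these changes in the counts was not tested. All comparisons share 1 estimate of the spread in the 12-library fit. Of 189 called genes that the naming rules selected, 178 kept the call in all 16 alternatives, and none of them reversed. Most of those rules favour large changes or small adjusted p. Genes named outside the rules do not enter this count. Depth limits genes near the floor: of genes below 0.675 CPM 8.34% were called, against 21.7 to 23.5% of those above, and the median 95% interval reached 1.24 to each side on the log2 scale, against 0.35 for genes above 35.0 CPM.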
